A study of Homo sapiens with 7 samples.

Results

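The genes described here are 10 clock-controlled members of the circadian loop, namely the nuclear receptors NR1D1 and NR1D2, the D-box factor DBP, the repressor BHLHE40, the period genes PER1, PER2 and PER3, the cryptochromes CRY1 and CRY2, and CIART. They were taken as 10 of 20033 protein-coding genes, and every peak was used whose centre lay inside the annotated span of a member or within 10 kb of it. Chromatin immunoprecipitation with sequencing (ChIP-seq), which reads the DNA held by an immunoprecipitated protein, had been done in DLD-1, an established line of human colon adenocarcinoma cells. All groups carried a retrovirus for MycER, a MYC protein that 4-hydroxytamoxifen switches on. ATF4, a transcription factor of the stress response, was profiled in 2 control libraries given vehicle and in 2 libraries after 8 hr of activation with 500 nM of the inducer, and MYC in 2 libraries after the same activation. No MYC library of control cells was used here, so the MYC values are levels in activated cells and not changes. Neither the share of the cells' own MYC in these tags nor an effect of the inducer itself can be told apart from MycER. An IgG sample had no list of its own in what was used. The labels do not say whether the replicates were separate cultures. Peak lists do not measure expression, and clock phase was not tested.

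The mammalian clock is a loop of transcription. CLOCK and BMAL1 bind the E-box, whose canonical letters are CACGTG, and switch on PER, CRY, NR1D, DBP, BHLHE40 and CIART. PER and CRY proteins return to block CLOCK and BMAL1, CIART and BHLHE40 repress at the same sites, the NR1D receptors (REV-ERBs) repress BMAL1, and DBP drives genes through the D-box. MYC with its partner MAX binds the same E-box letters, and in other cancer cells MYC has been described as raising NR1D1.

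The promoters below are shown because they place the E-box letters beside the MYC peaks. Sequences are from RefSeq (GRCh38.p14), which matched all 10 members, and run 5′ to 3′ on the strand of the gene. Whole promoters end at the base before the transcription start. Capitals mark CACGTG, its CG variant CACGCG, the E-prime box AACGTG and the D-box core TTANGTAA, searched on both strands, and no marked site overlaps another. NR1D1 (chr17:40100590-40100839, minus strand), CRY1 (chr12:107093550-107093799, minus strand) and BHLHE40 (chr3:4979187-4979436, plus strand) had a MYC peak in both libraries on this stretch, and CIART (chr1:150282304-150282553, plus strand) had none.
NR1D1: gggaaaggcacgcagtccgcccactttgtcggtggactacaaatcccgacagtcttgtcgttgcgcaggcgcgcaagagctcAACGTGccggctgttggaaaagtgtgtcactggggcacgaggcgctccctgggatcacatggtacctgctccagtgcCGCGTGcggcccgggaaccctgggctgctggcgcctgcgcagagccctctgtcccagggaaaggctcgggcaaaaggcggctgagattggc
CRY1: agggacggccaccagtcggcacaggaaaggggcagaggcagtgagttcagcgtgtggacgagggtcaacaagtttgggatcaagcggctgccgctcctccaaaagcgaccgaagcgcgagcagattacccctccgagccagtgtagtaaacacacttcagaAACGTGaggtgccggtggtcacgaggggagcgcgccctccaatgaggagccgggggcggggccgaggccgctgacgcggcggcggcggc
BHLHE40: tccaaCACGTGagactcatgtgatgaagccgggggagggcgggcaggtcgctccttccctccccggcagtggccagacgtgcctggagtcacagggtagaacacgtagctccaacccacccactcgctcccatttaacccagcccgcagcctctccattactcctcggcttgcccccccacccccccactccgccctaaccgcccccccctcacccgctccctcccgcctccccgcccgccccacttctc
CIART: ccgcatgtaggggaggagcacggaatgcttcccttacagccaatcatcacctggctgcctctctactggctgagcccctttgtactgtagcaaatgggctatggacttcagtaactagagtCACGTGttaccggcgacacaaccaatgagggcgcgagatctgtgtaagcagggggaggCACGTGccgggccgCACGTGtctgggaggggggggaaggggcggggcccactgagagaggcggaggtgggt

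Shorter stretches of 30 bases show the sites of the other 6 members. They are the CACGTG of PER1 (chr17:8152560-8152589, minus strand), both CACGTG of NR1D2 (chr3:23945954-23945983 and chr3:23946004-23946033, plus strand), the E-prime box of CRY2 (chr11:45847275-45847304, plus strand), that of PER2 (chr2:238288790-238288819, minus strand), which reads CACGTT on the strand of the gene, and the first CACGCG of DBP (chr19:48637547-48637576, minus strand) and of PER3 (chr1:7784246-7784275, plus strand).
PER1: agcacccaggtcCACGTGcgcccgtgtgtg
NR1D2 first site: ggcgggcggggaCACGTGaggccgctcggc
NR1D2 second site: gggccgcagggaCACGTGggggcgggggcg
CRY2: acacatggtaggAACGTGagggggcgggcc
PER2: ggcgcgcgcggtCACGTTttccactatgtg
DBP: gccggagggaggCACGCGgctgggttgcat
PER3: ggcgggaccggtCACGCGgcggcagggggc

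MYC peaks lay at the starts of NR1D1, DBP, BHLHE40 and CRY1 in both libraries. These 4 of 10 members were the ones with a MYC region, that is a site with overlapping peaks in both libraries, within 10 kb, against 25.2% of protein-coding genes. Around them lay 9 such regions. Another 11 member regions had a peak in 1 library, 1 of them in replicate 1 and 10 in replicate 2. NR1D2, PER1, PER2, CRY2 and CIART had only such peaks, which makes 9 members with a MYC peak in either library against 60.8% of genes. PER3 had none. By span, 3 of the 4 members of up to 10 kb (NR1D1, DBP and BHLHE40, not CIART) had a region in both libraries, against 18.1% of genes of that size, and 1 of the 6 longer members (CRY1), against 28.0%. Replicate 2 was read more deeply (50.11 against 21.04 M tags) and its list is longer (22532 against 8636 peaks). In replicate 1 alone 5 members had a peak, where 29.7% of genes did, and in replicate 2 alone 9, where 59.5% did.

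A region in both libraries lay within 1000 bp of a listed transcription start in the same 4 members, against 10.9% of the 15842 protein-coding genes with a listed start. With a peak in either library 8 members had one, against 34.8% of genes. Inside the span itself the share of members (1 of 10, NR1D1) was not above that of genes (14.5%) and the start regions of the 4 members were centred 144 to 458 bp upstream. Because 10 genes are few and were chosen with results of these data known, these shares are descriptions and no test was made of them.

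**Figure D1:**
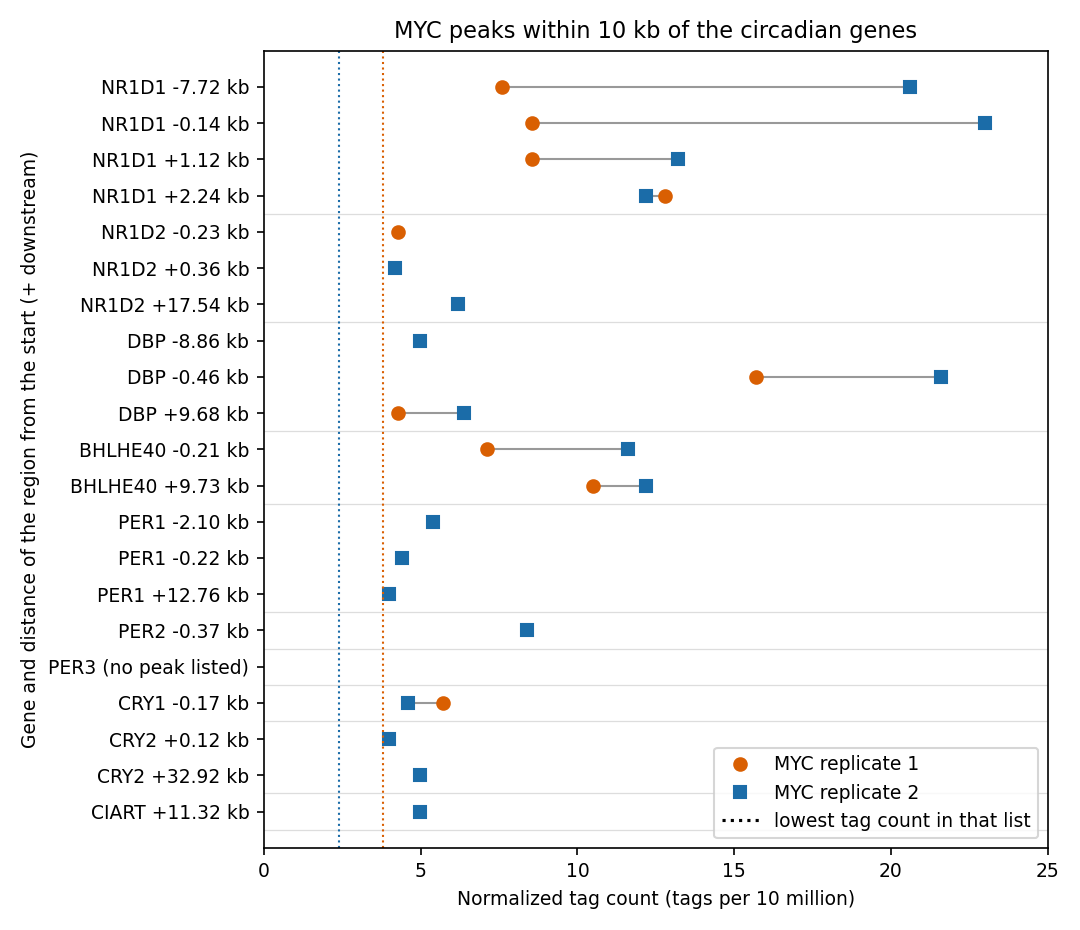
Normalized tag count (tags per 10 M, x axis) of every MYC peak within 10 kb of a member, by gene and distance of the region from the start (y axis), with a circle for MYC replicate 1, a square for replicate 2, a line joining peaks of 1 region, and dotted lines at the lowest tag count listed in each library. The regions of NR1D1, DBP and BHLHE40 reach above 10 tags in replicate 2, except the 2 DBP regions away from its start, while the peaks of PER1, CRY2 and CIART lie between 3.99 and 5.39.

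NR1D1, which encodes REV-ERB alpha, had the most regions of any member. Its 4 regions lay 7723 bp and 144 bp upstream of the start and 1121 bp and 2244 bp downstream, the last 2 inside the gene. Tags below are the authors' normalized tag count, scaled to 10 M tags per library. The start region (chr17:40100634-40100831) had 8.56 tags in replicate 1 and 23.0 in replicate 2, a mean of 15.8 ± 10.2 (SD, n = 2), and 37.04-fold and 99.36-fold over the background library. The upstream region (chr17:40108214-40108410) had 7.61 and 20.6 tags, a mean of 14.1 ± 9.19 (SD, n = 2). No annotated gene span held its centre or lay nearer to it than NR1D1 did. Inside the gene the first region (chr17:40099339-40099597) had 8.56 and 13.2 tags, a mean of 10.9 ± 3.28 (SD, n = 2). The second (chr17:40098251-40098439) had 12.8 and 12.2 tags, a mean of 12.5 ± 0.42 (SD, n = 2).

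The order of the NR1D1 regions thus differed between the libraries. Replicate 1 was highest at the second inner region, and replicate 2 was highest at the start and at the upstream region. For these last sites the ratio of replicate 2 to replicate 1 was 2.69 and 2.71, above that of 98.2% and 98.3% of the 6313 MYC regions found in both libraries, whose median ratio was 1.39. Replicate 1 held 18 whole tags at the start, for which the exact 95% Poisson interval runs from 5.07 to 13.53 normalized tags and does not reach 23.0. This interval covers counting error only.

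Having 4 or more regions was uncommon. This held for 0.459% of protein-coding genes and for 0.0351% of those with a span of up to 10 kb, which were NR1D1 and PA2G4 of 5691. PA2G4, a growth-related RNA-binding protein, is named here after its count was seen, as was this property of NR1D1. NR1D2, which encodes REV-ERB beta, had no region in both libraries. Replicate 1 had a peak of 4.28 tags 229 bp upstream of its first start, and replicate 2 had peaks of 4.19 tags 359 bp downstream of its second start and of 6.19 tags 17540 bp downstream. Both peaks near the starts also lay within the span of NKIRAS1, which overlaps the starts of NR1D2, and the first also within that of the lncRNA LOC124909354. The NR1D genes differed in this presence of regions, and the difference was not tested.

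**Figure D2:**
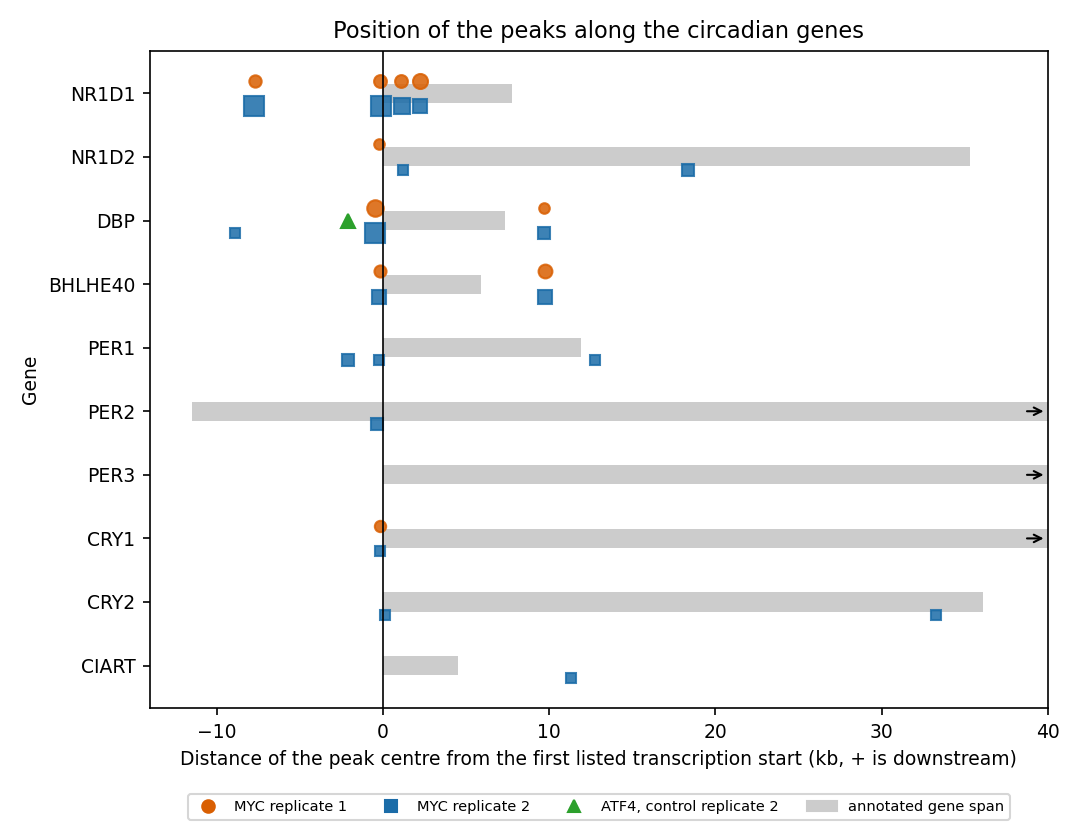
Position of each peak centre in kb from the first listed transcription start (x axis, downstream positive) for the 10 members (y axis), with circles for MYC replicate 1, squares for MYC replicate 2 (larger for more tags), triangles for ATF4 in control replicate 2 and grey bars for the annotated spans, an arrow marking a span that continues. In 8 members a MYC peak of either library lies within 1000 bp of a listed start, and other peaks lie farther away. NR1D1 carries 4 regions, and PER3 carries none. The ATF4 peak of CRY1, 72323 bp downstream of the start, lies beyond the axis.

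DBP, the activator at D-boxes, had the strongest region of the members. It lay 458 bp upstream of the start (chr19:48637739-48637936) with 15.7 tags in replicate 1 and 21.6 in replicate 2, a mean of 18.65 ± 4.17 (SD, n = 2), and 13.99-fold and 23.33-fold over background. Of all MYC regions in both libraries, 96.4% had a lower mean. The gene CA11, a carbonic anhydrase relative, ends 108 bp from the centre of this region, and the pseudogene SEC1P starts 202 bp from it, both nearer than the start of DBP, although among listed transcription starts that of DBP was the nearest. A weaker region (chr19:48627614-48627793) had 4.28 and 6.39 tags, a mean of 5.34 ± 1.49 (SD, n = 2). It lay inside SPHK2, a sphingosine kinase whose nearest listed start was 2674 bp away, and 9676 bp from the start of DBP. Replicate 2 alone had a peak of 4.99 tags 53 bp from the end of the CA11 span that faces away from DBP, inside the span of SEC1P.

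BHLHE40, also called DEC1, had regions on both sides. The start region (chr3:4979124-4979332), 209 bp upstream, had 7.13 and 11.6 tags in replicates 1 and 2, a mean of 9.36 ± 3.16 (SD, n = 2). It lay within the span of the antisense transcript BHLHE40-AS1 as well. The second region (chr3:4989081-4989261) lay beyond the end of the gene, 9734 bp downstream of the start, with 10.5 and 12.2 tags, a mean of 11.35 ± 1.2 (SD, n = 2), and 45.27-fold and 52.7-fold over background. The second region was the higher in each library (10.5 against 7.13 tags in replicate 1, and 12.2 against 11.6 in replicate 2). The ranges over both libraries overlapped, with replicate 2 the higher at each region, and the order was not tested.

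Cryptochromes repress by binding CLOCK and BMAL1 directly. CRY1 had 1 weak region in both libraries (chr12:107093628-107093804), 167 bp upstream of the start. It had 5.7 tags in replicate 1 and 4.59 in replicate 2, a mean of 5.14 ± 0.78 (SD, n = 2), lower than the mean of most MYC regions (13.2% were lower still). Of 7596 replicate 2 peaks within 20% of the tags of this one, 11.5% had a peak in replicate 1, as it did, and of 5068 replicate 1 peaks with tags like those of its replicate 1 peak, 68.3% had a peak in replicate 2. CRY2 had no such region. Its peaks in replicate 2, of 3.99 tags 119 bp downstream of its first start and of 4.99 tags 32916 bp downstream of its second, had none in replicate 1.

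Each period gene lacked a region in both libraries. PER2 had a peak of 8.38 tags in replicate 2 (chr2:238288896-238289072), 374 bp upstream of its listed start and 72.58-fold over background, and none in replicate 1. The peak lay within the annotated span of PER2, which extends upstream of the listed start, and within that of the lncRNA LOC112268433. Of 3699 replicate 2 peaks of like tags (within 20%), 53.0% had a peak in replicate 1, so a peak of this height was about as often repeated as not. PER1 had peaks in replicate 2 of 4.39 tags 221 bp upstream of the start, of 5.39 tags 2096 bp upstream, and of 3.99 tags beyond its end. Peaks of like tags were repeated in replicate 1 in 9.5%, 18.5% and 7.0% of cases. The last peak was only 1.92-fold over background and lay 115 bp from the transfer RNA gene TRT-AGT5-1, nearer than the end of PER1. PER3 had no MYC peak within 10 kb in either library.

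CIART, also called CHRONO, had a peak of 4.99 tags in replicate 2, 11319 bp downstream of its start. This peak lay 12 bp from the start of MRPS21, a mitochondrial ribosomal protein gene. It lay outside the span of CIART and within that of MRPS21.

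By level, the strongest region of each member ranked DBP (18.65 tags, mean of both libraries), NR1D1 (15.8), BHLHE40 (11.35) and CRY1 (5.14). For these regions, chosen by their mean, DBP and NR1D1 did not differ beyond their spread, since 8.56 and 23.0 tags enclose 15.7 and 21.6. NR1D1 and BHLHE40 did not either. In replicate 1 another NR1D1 region was higher, at 12.8 tags. By the highest value in each library, NR1D1 (12.8 and 23.0) was above BHLHE40 (10.5 and 12.2), which was not tested. DBP was above BHLHE40, and all of these above CRY1, in both libraries. Of the 5048 genes with a region, 94.7% had a lower strongest mean than DBP, 90.1% than NR1D1, 73.3% than BHLHE40 and 9.5% than CRY1. The median over the 4 members was 13.6 tags, beside 8.3 over all such genes.

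**Figure D3:**
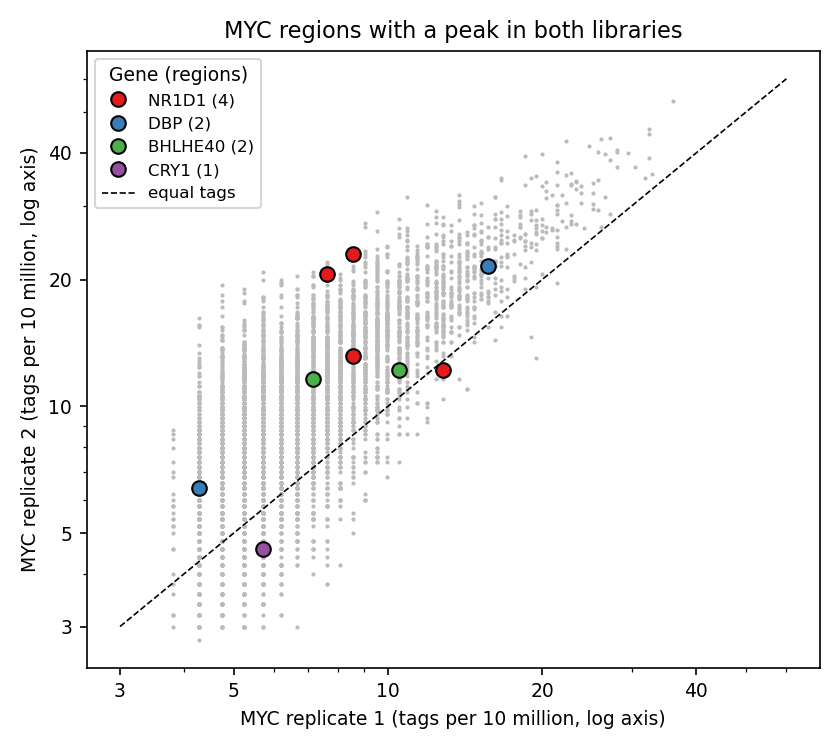
Normalized tag counts in MYC replicate 1 (x axis) and replicate 2 (y axis), both per 10 M tags on log axes, at the 6313 regions with a peak in both libraries (grey points), with the 9 member regions in colour and a dashed line of equal tags. The NR1D1 regions at 8.56 and 23.0 and at 7.61 and 20.6 tags lie at the upper edge of the grey points, and CRY1 and the second inner NR1D1 region lie below the dashed line.

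The label of these genes as E-box genes was compared with the promoter windows of 300 bases, 250 before and 50 after each listed start. CACGTG was present in 4 of 10 members (NR1D2, BHLHE40, PER1 and CIART), beside 10.9% of 15842 genes. CACGCG was present in 4 (NR1D1, NR1D2, DBP and PER3), beside 18.1%, and AACGTG in 4 (NR1D1, PER2, CRY1 and CRY2), beside 7.08%. Every member held at least 1 of the 3 forms, beside 31.1% of the 15842 genes. The members were listed as E-box genes, so the choice of list presupposes such a share, and it was not tested. NR1D2, PER3 and CRY2 were searched over 2 windows, and 41.8% of genes with 2 windows held one, beside 25.7% of genes with 1. TTANGTAA was present in 3 (NR1D2, PER2 and PER3), beside 2.18%, and AGGTCA, the core of nuclear receptor sites, in 2 (PER1 and CRY2), beside 15.3%. Neither TGATGNAA, the composite site of ATF4, nor the cyclic AMP element TGACGTCA was in these windows of any member, beside 3.6% and 3.0% of genes.

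BHLHE40 was the only member with both CACGTG in its window and a MYC region in both libraries at its start. The centre of that CACGTG lay 64 bp from the peak centre in replicate 1 and 18 bp in replicate 2. At NR1D1 the AACGTG of the window lay 2 and 32 bp from the peak centres, and the CACGCG 80 and 44 bp. The AACGTG of CRY1 lay 90 and 80 bp from them, inside the peak of replicate 2 and outside that of replicate 1. For DBP the peak centres were 300 and 266 bp from its CACGCG, upstream of the window, where no sequence was read.

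In contrast, CACGTG stood without a peak in both libraries at PER1, NR1D2 and CIART. The peak of replicate 2 at PER1 was centred 50 bp from it. The CACGTG sites of NR1D2 were 512 and 462 bp from the nearest peak centre of replicate 2, and the 3 CACGTG sites of CIART, 57 to 129 bp before its start, were more than 11 kb away (11374 to 11446 bp). The AACGTG of CRY2 was 52 bp from a peak centre in replicate 2, and that of PER2 180 bp, outside the peak.

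Across all genes CACGTG, counted anywhere in a promoter window, was more frequent in windows that overlapped a MYC region. It was present in 22.7% of the 941 promoter windows that overlapped a MYC region in both libraries and in 7.7% of the other 21257. For AACGTG these shares were 13.3% and 5.08%, and for CACGCG 25.9% and 13.7%. Of the other letters searched, TGACGTCA was also more frequent in the overlapping windows (3.51% and 2.2%). AGGTCA was nearly equal (12.1% and 11.9%), and TTANGTAA (1.06% and 1.62%) and TGATGNAA (2.34% and 2.71%) were less frequent. These differences were not tested. A match of letters is not a site of binding, and sequence outside these windows was not searched.

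**Figure D4:**
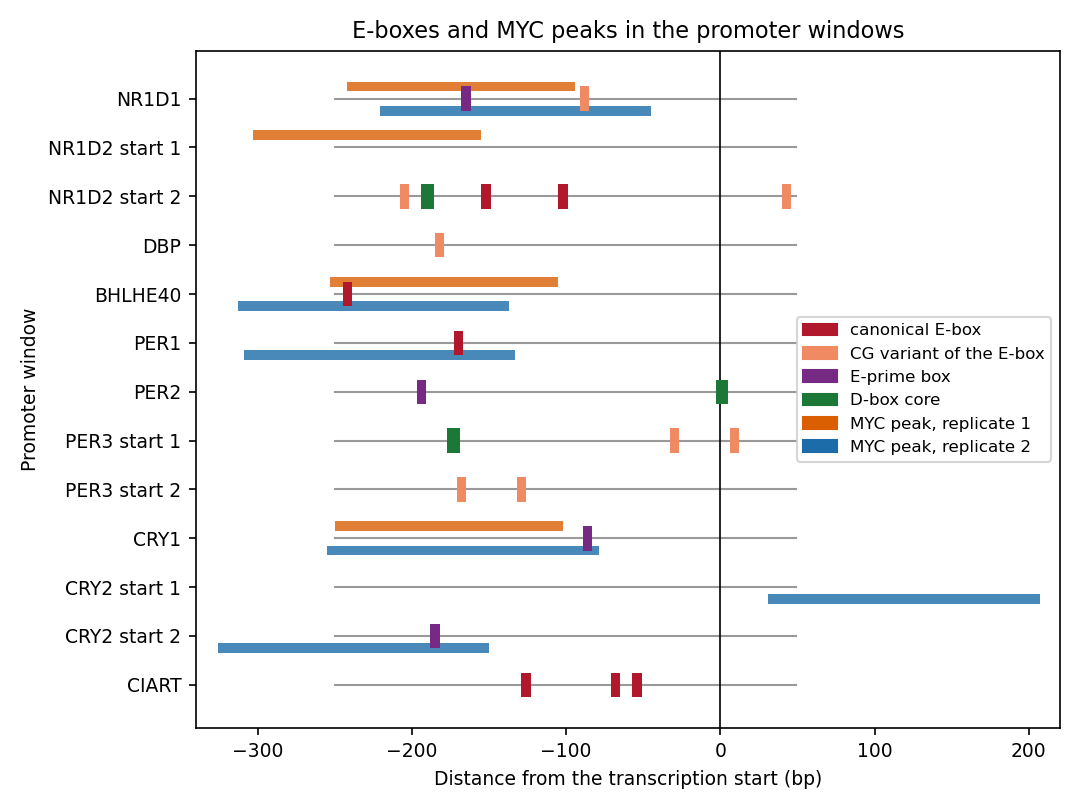
Promoter windows of the members (y axis) from 250 bp before to 50 bp after each listed start (x axis, bp from the start), with coloured ticks for the E-box forms and the D-box core and bars for the MYC peaks of replicate 1 (above the line) and replicate 2 (below it). The E-box of BHLHE40 and the E-prime box of NR1D1 lie within the bars of both libraries, that of CRY1 within the replicate 2 bar alone, and the 3 canonical E-boxes of CIART have none.

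The other genes of the clock, a list of 32, were compared in the same way. A MYC region in both libraries lay within 10 kb of 12 (37.5%, beside 25.2% of protein-coding genes and 4 of the 10 members), another 12 had only peaks that the other library lacked, here called single peaks, and 8 had none. Most genes of the list have spans over 10 kb, and 28.0% of protein-coding genes of that size had a region in both libraries. The partners that drive the E-box, CLOCK and BMAL1, had a single peak each, BMAL2 had none, and the region of NPAS2 (8.08 and 11.8 tags) lay 118 bp from the start of the ribosomal protein gene RPL31. RORA, a nuclear receptor that activates BMAL1, had regions, the strongest with 7.13 and 12.4 tags and 20586 bp from a listed start. RORB had no peak. Among the D-box factors TEF had one (5.7 and 8.78 tags, 302 bp from its start), and NFIL3 and HLF had single peaks. The period kinases CSNK1D (10.9 and 12.4 tags) and CSNK1E (5.7 and 7.18, 387 bp from its start) had regions, and GSK3B, also a kinase, had single peaks. The distance of the CSNK1D region from a start is not reported here.

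Among the partners of the loop, TIPIN (6.18 and 10.6 tags, 54 bp from its start) and CIPC (7.61 and 9.38 tags, 646 bp from its start) had regions, while TIMELESS and NONO had single peaks. For 4 of 6 cofactor genes the values were 12.8 and 16.4 tags at WDR5, 9.98 and 19.6 at HDAC3, 13.3 and 18.2 at NCOR1, and 5.23 and 8.38 at NAMPT. The regions of HDAC3, NCOR1, WDR5 and CIPC were nearer to the starts of other genes, namely DIAPH1 (360 bp), PIGL (52 bp), LOC124902297 (6493 bp) and LOC124903350 (406 bp). None of the 5 ubiquitin ligase and protease genes had a region in both libraries, nor had USF1, USF2, CREB1 or BHLHE41, the relative of BHLHE40. As a check of the MYC libraries, the established MYC targets NPM1, NCL, LDHA and CDK4 had regions in both, with means from 8.26 to 15.22 tags, and ODC1 and CAD had single peaks.

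**Figure D5:**
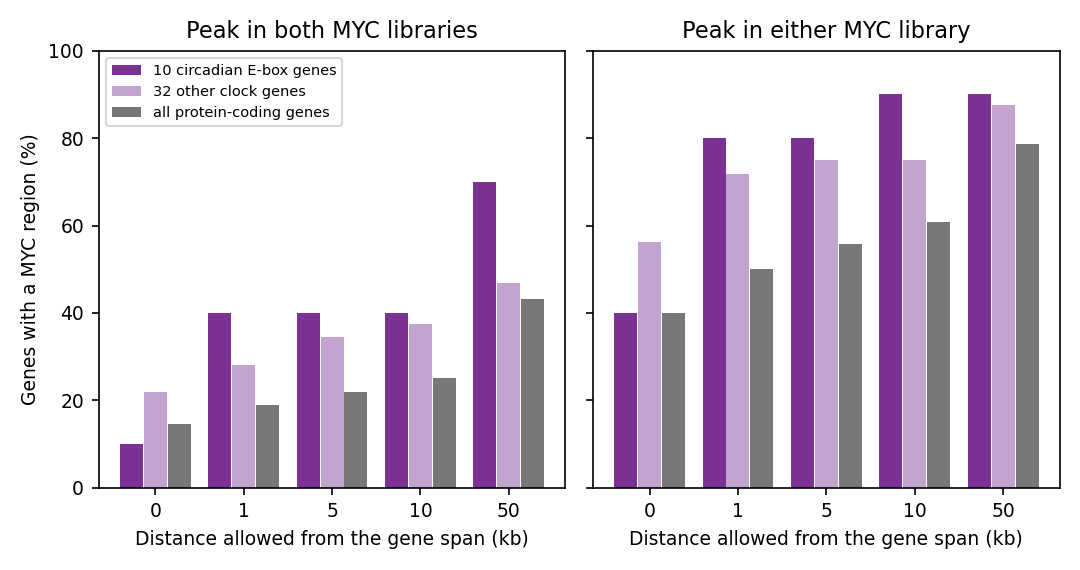
Share of genes (%, y axis) with a MYC region at 5 distances allowed from the gene span (kb, x axis), for the 10 members, the 32 other clock genes and all protein-coding genes, with a peak in both libraries on the left and in either on the right. With both libraries 4 of the 10 members have one from 1 to 10 kb, where all genes go from 18.9% to 25.2%, and 1 member has one inside its span, where 14.5% of all genes do.

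An ATF4 peak in any of the 4 libraries lay within 10 kb of 2 members, CRY1 and DBP, where 15.5% of protein-coding genes had one, so the members' count was near that of other genes. Replicate 1 of the control cells and both activated libraries had no peak within 10 kb of any member, where 2.95%, 4.28% and 7.76% of genes had one, shares at which 10 genes would hold few peaks. Control replicate 2 had peaks at 2 members, where 5.37% of genes had one. One of 3.38 tags and 2.09-fold over background lay inside CRY1 (chr12:107021120-107021332), far from its start. Another of 3.58 tags and 3.87-fold lay 2065 bp upstream of the start of DBP (chr19:48639338-48639550), within CA11 and SEC1P. Of control replicate 2 peaks with like tags, 1.1% and 1.2% had a peak in control replicate 1. Neither overlapped a MYC peak. A region with ATF4 peaks in both libraries of a condition lay at 0 members, where 0.524% of genes had one in control cells and 1.4% after activation.

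Whether MYC activation changed ATF4 at these genes could not be tested. Of the 105 regions with an ATF4 peak in all 4 libraries, to which limma was fitted, 0 lay at a member. With 2 against 2 libraries a site seen in 1 control library gives no measure of change, and an unlisted peak may be one below the lowest tag count listed, which was 2.81 to 4.46 in the ATF4 lists.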

How the data were processed

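Each of the 6 libraries came as 1 HOMER peak list, in hg38 coordinates. The tools were Bowtie 0.12.9 and HOMER, per the submitters' processing notes; their settings are not given in the sources used here. Values used are the authors' normalized tag count, a signal in tags per 10 M sequenced. Further deposited columns are a focus ratio (a fraction), a peak score, fold over background and surroundings (a ratio), their p-value, and total tags, whole counts for replicate 1 and scaled values for replicate 2, as the deposited values show. Fold values are the authors' and only describe peaks. The fraction, score and p-value are not reported. The background library is not named.

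Depth, read from whole tags (replicate 1) or from steps between low tag values (replicate 2), was 21.04 to 24.95 and 49.77 to 50.3 M tags, and more reads lie behind a replicate 2 value. MYC peaks of both libraries overlapping by 1 bp or more formed regions. Genes and starts were those of GRCh38.p14. Other genes were named where nearer to a member region than the member, where their span held it, or from the clock and control lists, of which 1 result is not reported here. The members and lists were chosen with earlier results of these data known. limma 3.58.1, with a trend on log2(tags + 1) of the deposited values and Benjamini-Hochberg adjustment, was checked on simulated data. Alternatives are given at the end. Python 3.11.15 and scipy 1.17.1 were used.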

Additional observations from a re-analysis of the deposited data

How the results depend on the processing

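The 4 members with a MYC region stayed 4 at 1 kb (18.9% of genes), at 5 kb (21.9%), with only peaks 8-fold or more over background (15.6%), and above a common lowest tag count (24.6%). They were 1 for centres inside the span (14.5%), 7 at 50 kb (43.2%), and 9 with a peak in either library (60.8%), and leaving out 1 library gave 5 to 9. For starts the number was 8 with either library (34.8% of genes with a listed start) and 5 to 8 with 1 library left out. No share of genes is given for starts in a single library, so these last numbers cannot be set against one. The 12 other clock genes were 7 inside the span (14.5% of genes) and 24 with either library (60.8%). They were 14 in replicate 1 alone (29.7%) and 24 in replicate 2 alone (59.5%). The median of 13.6 tags was 22.35 as a sum over regions, and 11.65 to 16.9 with 1 library left out. The 2 members with an ATF4 peak (15.5% of genes) were 1 at 1 kb (10.8%), 5 at 50 kb (30.2%), 0 with only peaks 4-fold or more over background (9.45%), and 0 to 2 with 1 library left out, the 0 being without control replicate 2 (12.1%). CACGTG or CACGCG was in 7 members' promoters, beside 26.2% of genes. With any 1 ATF4 library left out, again 0 member regions entered the limma fit. The replicate block, pseudocount and centring settings used the same regions as the main fit, so they could not change this number. Member regions were searched for E-boxes only where they lie on the promoter windows, since no genome was used here. MYC replicate 2 has 50.11 and replicate 1 has 21.04 M tags, and the part of this depth in which peaks are listed was not tested.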

Other observations

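ATF4 had a region in both activated libraries near 2 of the 32 other clock genes, TEF and RORA, where 1.4% of protein-coding genes had one. That share was not matched for span, and a long span such as that of RORA (741019 bp) gives more room for a region. At TEF, a D-box factor like DBP, the region (chr22:41380385-41380589) had 5.61 and 5.22 tags in activated replicates 1 and 2, at 8.1-fold and 5.65-fold over background, and no peak in either control library. It lay 1455 bp upstream of the nearest listed start of TEF, and nearer to a start of the neighbouring LOC105373042. That start of TEF is not the one beside the MYC region given above, so the site need not lie upstream of the gene. The ATF4 region overlapped a MYC peak of 4.59 tags in MYC replicate 2. At RORA the region (chr15:60583995-60584240) lay 43412 bp downstream of a listed start, with 4.01 and 4.02 tags in the activated libraries, no control peak in that region, and a MYC peak of 4.99 tags in replicate 2. Elsewhere near RORA, control replicate 1 had an ATF4 peak of 4.91 tags. The activated tags of RORA are below 4.46, the lowest value listed in control replicate 1, so that list does not reach down to their level. These genes were picked out after their values were seen, and the difference between conditions was not tested because tags are listed only where a peak was called.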
